A study of Mus musculus with 26 samples.

Results

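Genes of the activin, BMP and TGF-beta signalling pathways were followed in supporting cells, the non-sensory cells of the mouse cochlea, after Notch signalling had been blocked in culture. The 10 genes were chosen by symbol: the activin subunit genes Inhba and Inhbb, the ligand genes Bmp2 and Bmp4, the follistatin-type genes Fst, Fstl1 and Fstl3, the receptor genes Tgfbr1 and Acvr2b, and the inhibitory Smad gene Smad7. They are 10 of the 48709 gene identifiers in the RNA tables, and each matched 1 identifier. Cochleae of mice at postnatal day 1 were kept in culture with DAPT, an inhibitor of gamma-secretase that blocks Notch receptor cleavage, or with the solvent DMSO. At 24 h, cells carrying GFP under Lfng were sorted from DAPT cultures (3 RNA libraries) and from DMSO cultures (3 RNA libraries). At 48 h, 3 sorts were compared: permissive cells, which came from DAPT cultures and carried both a Lfng-CreER/TdT label and Atoh1-GFP (3 RNA libraries); nonpermissive cells, which came from DAPT cultures and carried the TdT label without Atoh1-GFP (3 RNA libraries); and control cells, which came from DMSO cultures and carried the TdT label without Atoh1-GFP (2 RNA libraries). ATAC, which reads open chromatin, and H3K27ac CUT&RUN, which reads a histone acetylation found at active promoters and enhancers, were each done at 48 h in 2 libraries per sort. Every group shared the culture medium with EGF and FGF and the trypsin dissociation. Lfng is active in several supporting cell types, so each sort mixes them. The permissive sort required the Atoh1 reporter, so differences between sorts compare cells that a reporter separated, and the 2 arms of the DAPT cultures differ by that gate. The labels do not say that replicates came from separate animals or cultures, so p-values measure the spread between these libraries, which may be technical.

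Activins and BMPs are secreted dimers of the TGF-beta family. A ligand brings type II receptors (such as the product of Acvr2b) and type I receptors (such as that of Tgfbr1) together, and the type I receptor then phosphorylates Smad proteins, which enter the nucleus with Smad4. Follistatins bind activins outside the cell and keep them from their receptors, and Smad7 blocks the type I receptor inside the cell. In the embryonic mouse cochlea, activin A, the dimer of the Inhba product, promotes the differentiation of hair cells, and follistatin opposes it; BMP4 helps to pattern the lateral cochlear duct.

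The promoters of 3 genes are shown because their RNA fell at 24 h and, for Inhba and Fstl1, because the same stretch is covered by the chromatin data described further on. Each runs 5′ to 3′ over 250 bases before and 50 bases from the annotated start, on the plus strand of GRCm38.p6, from RefSeq. Capitals mark every match, on either strand, to 5 short motifs: the RBPJ core TGGGAA, the E-box CAGNTG, the Smad-binding element CAGAC, the AP-1 motif TGANTCA and the TEAD motif GGAATG. The Inhba stretch is chr13:16011601-16011900, that of Fstl1 is chr16:37776805-37777104 and that of Fstl3 is chr10:79777024-79777323.
Inhba: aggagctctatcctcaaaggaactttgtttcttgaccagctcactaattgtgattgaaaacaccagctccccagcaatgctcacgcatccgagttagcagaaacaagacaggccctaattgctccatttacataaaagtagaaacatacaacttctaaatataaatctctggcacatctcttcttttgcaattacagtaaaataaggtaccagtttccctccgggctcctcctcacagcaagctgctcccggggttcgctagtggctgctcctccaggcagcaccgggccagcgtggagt
Fstl1: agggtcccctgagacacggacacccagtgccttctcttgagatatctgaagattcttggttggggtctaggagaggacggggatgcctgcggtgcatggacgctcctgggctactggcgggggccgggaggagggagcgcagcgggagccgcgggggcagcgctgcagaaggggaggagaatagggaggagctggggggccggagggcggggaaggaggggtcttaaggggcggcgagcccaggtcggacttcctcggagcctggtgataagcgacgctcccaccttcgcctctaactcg
Fstl3: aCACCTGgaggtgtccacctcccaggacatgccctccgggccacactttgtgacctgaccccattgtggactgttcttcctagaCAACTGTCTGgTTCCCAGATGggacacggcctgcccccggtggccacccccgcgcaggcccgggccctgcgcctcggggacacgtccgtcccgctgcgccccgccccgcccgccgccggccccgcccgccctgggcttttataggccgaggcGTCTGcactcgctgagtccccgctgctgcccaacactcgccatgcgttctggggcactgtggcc
Neither the Inhba nor the Fstl1 stretch holds any of the 5 motifs. The Fstl3 stretch holds 1 RBPJ core, which begins 155 bases before the start, 3 E-boxes beginning 249, 166 and 151 bases before it, and 2 Smad-binding elements beginning 161 and 14 bases before it. The RBPJ core overlaps the E-box beginning 151 bases before the start, and the outer Smad-binding element overlaps the E-box beginning 166 bases before it. Such matches are common: of 32851 promoter stretches of the same length, 25.6% hold the RBPJ core, 51.4% the E-box, 49.6% the Smad-binding element, 7.81% the AP-1 motif and 14.7% the TEAD motif. The Inhba stretch is 47.7% G and C, against 66.7% for Fstl1 and 70.7% for Fstl3. In all, 7 of the 10 genes had a promoter entry.

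The RNA libraries held 10698344 to 13158897 counts at 24 h in DAPT and 10666050 to 12124862 in DMSO. At 48 h they held 2576473 to 4232069 counts in permissive, 2165338 to 3206754 in nonpermissive and 3613245 to 4896374 in control. Levels are given as CPM, the gene's count relative to a library size scaled by TMM, a correction for RNA composition. Hes5, a Notch target, was at 3.70 to 9.54 CPM in DAPT and 1551 to 1848 CPM in DMSO at 24 h. At 48 h it was at 1.62 to 21.1 CPM in permissive, 0 to 2.23 CPM in nonpermissive and 298 and 813 CPM in control, in the direction the labels give. Atoh1, the gated gene, was at 635 to 1008 CPM in permissive, 30.2 to 67.2 CPM in nonpermissive and 2.28 and 3.55 CPM in control. Lfng, whose reporter was the 24 h gate, was at 167 to 234 CPM in DAPT and 835 to 1212 CPM in DMSO. All 12 supporting cell markers were detected in every group. Their summed level was 8516 to 10384 CPM in DAPT and 14606 to 15726 CPM in DMSO, and that of 12 hair cell markers was 4627 to 7798 CPM in DAPT and 1832 to 2229 CPM in DMSO. At 48 h the supporting cell sum ranged from 2183 to 24934 CPM in permissive, with replicate 1 the low library. It was 14390 to 24099 CPM in nonpermissive and 16034 and 23388 CPM in control. The median of the 12 markers was low in all 3 permissive libraries, at 66.7, 73.1 and 60.4 CPM. It was 264, 334 and 200 CPM in nonpermissive libraries and 426 and 400 CPM in control libraries. In bulk libraries fewer cells of a type and less RNA per cell cannot be told apart. Kit and sort differ between 24 h and 48 h, so times were not compared.

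At 24 h Inhba, Fstl1 and Fstl3 fell and Bmp2 and Tgfbr1 rose in DAPT. These were 5 of the 8 genes tested; a gene was called where edgeR's quasi-likelihood test gave a Benjamini-Hochberg adjusted p under 0.05 over the 15174 genes tested. Of all genes tested 25.7% were called, 11.5% higher and 14.2% lower. The libraries of both groups did not overlap for 6 of the 8, against 42.3% of all genes, and the median log2 fold change of the 8 was -0.02, against 0.01 for all genes.

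Inhba, the activin A subunit gene, had 42.0, 34.6 and 53.8 CPM in the 3 DAPT libraries, against 162, 143 and 142 CPM in the 3 DMSO libraries. Every DAPT library lay below every DMSO library. The mean was 43.5 ± 9.66 CPM in DAPT and 149 ± 11.5 CPM in DMSO (SD, n = 3 each). The log2 fold change was -1.78 ± 0.15 (SE), 3.43-fold lower in DAPT, with an adjusted p of 6.70e-05 (edgeR). Inhbb, the activin B subunit gene, was near the floor of detection, with 6 counts over the DAPT libraries and 5 over the DMSO libraries, and was not tested.

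Bmp2, a BMP ligand gene, went the other way. It had 222, 250 and 269 CPM in DAPT libraries, against 84.5, 79.8 and 126 CPM in DMSO libraries, and the groups did not overlap. The log2 fold change was 1.35 ± 0.17 (SE), 2.55-fold higher in DAPT (edgeR adjusted p = 0.000626). Bmp4 was not tested either, with 15 counts over the DAPT libraries and 14 over the DMSO libraries.

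Fstl1 encodes a secreted glycoprotein with a follistatin-like domain. It had 2227, 2049 and 2483 CPM in DAPT libraries, against 4781, 4469 and 5775 CPM in DMSO libraries, so that each DAPT library held less than each DMSO library. It fell by 1.15 ± 0.13 on the log2 scale (SE), 2.22-fold lower in DAPT (edgeR adjusted p = 0.000299). Fstl3, whose product binds activins as follistatin does, had few counts. It had 6, 8 and 0 counts in DAPT libraries (0.54, 0.60 and 0 CPM), against 52, 46 and 43 counts in DMSO libraries (4.90, 3.81 and 3.83 CPM). Its log2 fold change was -3.36 ± 0.58 (SE; edgeR adjusted p = 0.00312), from 14 counts in all in DAPT and 141 in DMSO. Fst itself, follistatin, had 3.27, 1.44 and 0.66 CPM in DAPT libraries and 2.17, 0.83 and 0.71 CPM in DMSO libraries. The Fst groups overlapped, and the difference did not pass (log2 fold change 0.54 ± 0.63 SE; edgeR adjusted p = 0.580). Its sign turned to -0.20 without DAPT replicate 1.

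Tgfbr1, the type I receptor gene for TGF-beta, had 949, 966 and 1358 CPM in DAPT libraries, against 580, 600 and 694 CPM in DMSO libraries. It rose by 0.80 ± 0.15 on the log2 scale (SE), 1.75-fold higher in DAPT with no overlap (edgeR adjusted p = 0.00494). Acvr2b, a type II receptor gene for activins, had 44.7, 47.4 and 54.5 CPM in DAPT libraries and 42.8, 37.2 and 45.5 CPM in DMSO libraries, and these groups overlapped. Its difference did not pass (log2 fold change 0.22 ± 0.12 SE; edgeR adjusted p = 0.199). Smad7 had 20.7, 20.6 and 18.7 CPM in DAPT libraries and 22.7, 22.6 and 26.4 CPM in DMSO libraries. Each DAPT library was the lower, but the difference of -0.26 ± 0.12 (log2, SE) did not pass (edgeR adjusted p = 0.156). Summed markers of other cells also differed between the DAPT and DMSO libraries, beside those of hair cells and supporting cells given above. Markers of the epithelial ridges beside the sensory epithelium summed to 533 to 589 CPM in DAPT and 781 to 939 CPM in DMSO, those of Schwann cells and glia to 135 to 163 CPM in DAPT and 216 to 247 CPM in DMSO, and those of the stria vascularis and melanocytes to 42.3 to 76.1 CPM in DAPT and 107 to 144 CPM in DMSO. Endothelial markers summed to 22.7 to 25.1 CPM in DAPT and 30.4 to 35.8 CPM in DMSO, and blood and macrophage markers to 45.9 to 55.7 CPM in DAPT and 9.45 to 19.1 CPM in DMSO. For mesenchyme and spiral ganglion neurons the sums of the groups overlapped. Medians over a list did not always follow its sum. The median Schwann cell and glial marker was higher in DAPT, at 3.09, 2.49 and 3.56 CPM, against 1.51, 1.24 and 0.58 CPM in DMSO. That of blood and macrophages was 0.36, 0 and 0 CPM in DAPT and 0.19, 0.33 and 0.27 CPM in DMSO. The median mesenchyme marker was lower in DAPT without overlap, at 6.18, 4.91 and 3.42 CPM, against 15.8, 8.54 and 7.53 CPM in DMSO. Ridge and stria medians were lower in DAPT, as were their sums, and endothelial and spiral ganglion medians overlapped. Of these lists Dct and Tyr were at 0 in DAPT and Kcne1 in DMSO, all in the stria and melanocyte list. The part of these markers in the differences was not tested.

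**Figure D1:**
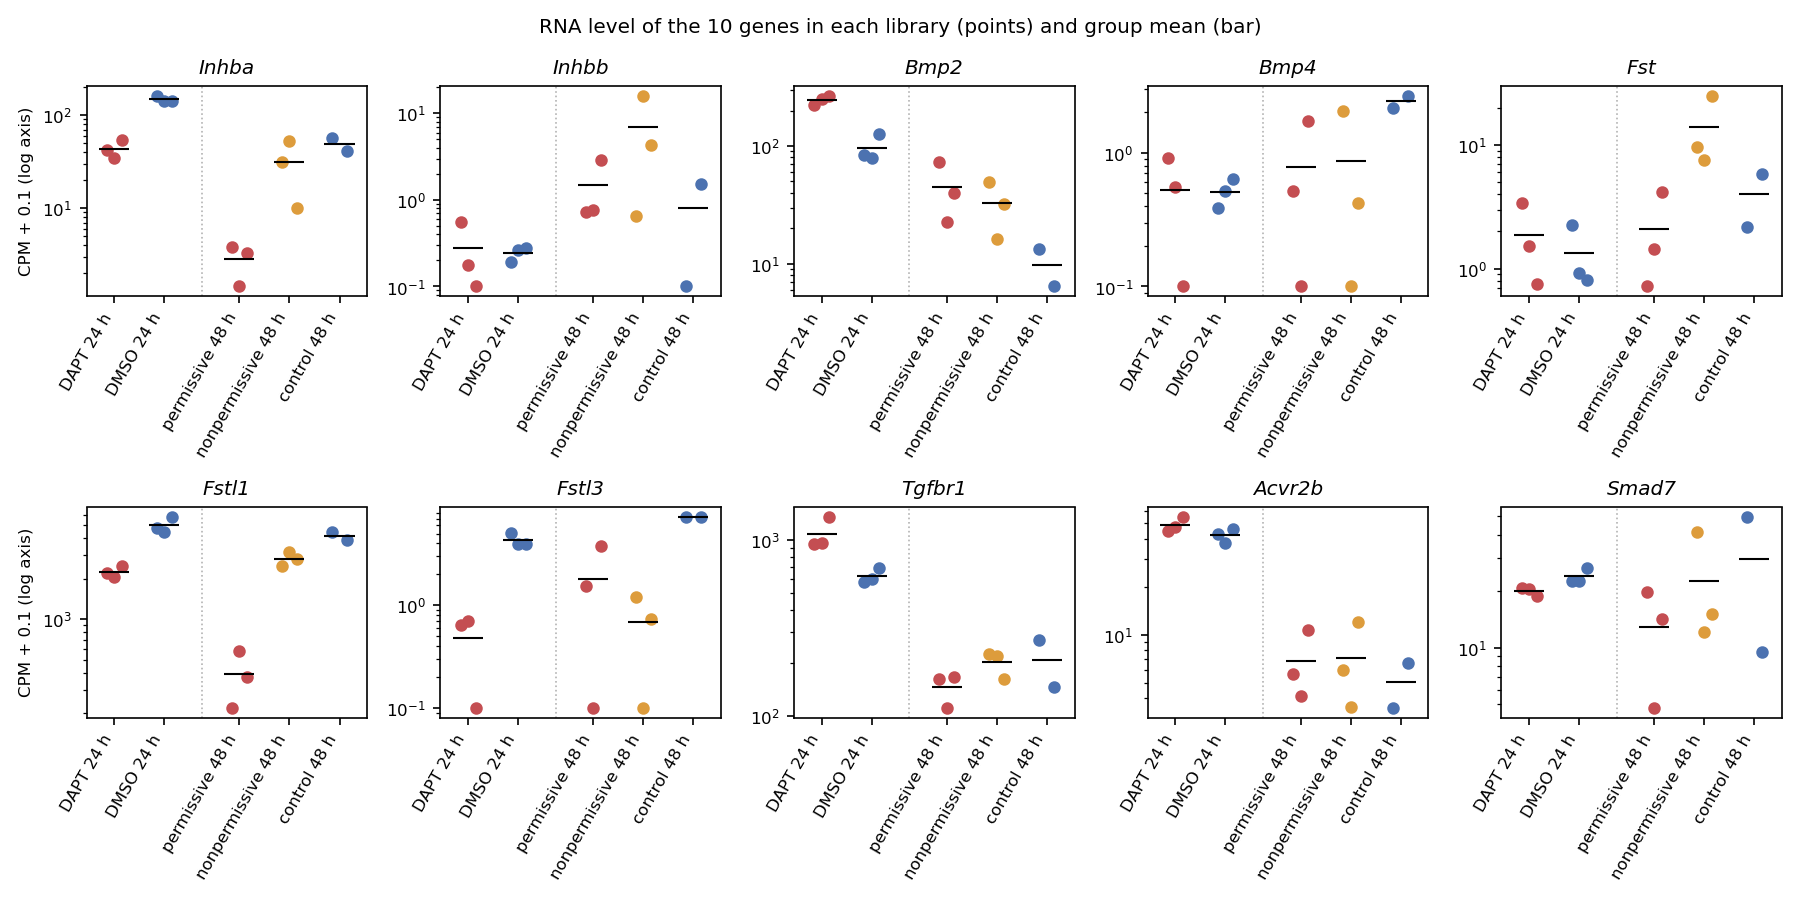
RNA level of each of the 10 genes in every library, as CPM plus 0.1 on a log axis with its own range per gene; points are libraries and bars group means. At 24 h the DAPT points of Inhba, Fstl1 and Fstl3 lie below and those of Bmp2 and Tgfbr1 above all DMSO points, and at 48 h Inhba and Fstl1 are low in permissive cells alone of the 3 sorts.

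Around these genes, more pathway genes fell than rose at 24 h. Of 89 further genes in 13 lists by role, 58 were tested, of which 6 rose and 19 fell in DAPT, beside 11.5% higher and 14.2% lower of all genes, with a median log2 fold change of -0.27 against 0.01 for all genes tested. The antagonists of BMP held 3 falls and no rise among 10 tested. Nbl1, which encodes a secreted BMP antagonist, was at 9.35 ± 0.69 CPM in DAPT and 57.0 ± 5.16 CPM in DMSO (SD, n = 3 each; log2 fold change -2.61, edgeR adjusted p = 3.36e-06). Nog, the noggin gene, also fell, to 0.48 CPM on average in DAPT, against 1.79 CPM in DMSO (edgeR adjusted p = 0.00711). Crim1, which encodes a membrane protein that binds BMPs, fell by 0.73 (log2).

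Among BMP target genes, 3 of 6 tested fell and 1 rose, beside 14.2% lower and 11.5% higher of all genes. Id3, an inhibitor of basic helix-loop-helix factors and a direct BMP target, was at 313 ± 19.5 CPM in DAPT and 808 ± 73.3 CPM in DMSO (SD, n = 3 each; log2 fold change -1.37, edgeR adjusted p = 2.69e-05). Id4 fell by 0.93 (log2), while Atoh8, a helix-loop-helix factor gene, rose with a log2 fold change of 3.13, at 17.1 CPM in DAPT and 1.97 CPM in DMSO. Bambi, a decoy receptor gene, fell by 1.53, and Smad6, an inhibitory Smad gene, by 0.92 on the same scale.

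Of the BMP and GDF ligands, Bmp7 and Gdf6 fell, with log2 fold changes of -0.82 and -1.85, and Bmp6 rose by 0.70 beside Bmp2. Of the TGF-beta ligands and the latency proteins that hold them in the matrix, 3 of 7 tested fell and none rose. All genes tested gave 14.2% lower and 11.5% higher. Tgfb2 had 539.5, 470.4 and 616 CPM in DAPT libraries, against 1038, 936 and 1027 CPM in DMSO libraries (log2 fold change -0.88), Ltbp3 fell by 0.77 and Ltbp4 by 1.21. Pmepa1, a TGF-beta target that dampens Smad signalling, fell by 1.15 (edgeR adjusted p = 0.000738). Fstl4, a further follistatin-like gene, rose to 39.5 ± 9.76 CPM in DAPT, against 10.8 ± 1.67 CPM in DMSO (SD, n = 3 each; log2 fold change 1.87, edgeR adjusted p = 0.000275). Nedd4l, a ubiquitin ligase gene, rose by 0.52, and Ski, a Smad co-repressor gene, fell by 0.59.

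Some smaller changes passed with all 6 libraries and did not pass without single ones or under other settings. Smad1 (log2 fold change -0.49) and Skil (-0.59) were lost when DMSO replicate 2, DMSO replicate 3, DAPT replicate 1 or DAPT replicate 2 was left out, with adjusted p of 0.0563 to 0.0712 for Smad1 and 0.0707 to 0.0897 for Skil. Bmpr1a (-0.35) was lost without DMSO replicate 1 or DMSO replicate 3, or DAPT replicate 1 or DAPT replicate 2, with adjusted p of 0.0758 to 0.117. Tgfbr2 (-0.74) was lost without DMSO replicate 3 (adjusted p = 0.0577) or DAPT replicate 2 (adjusted p = 0.0728), and Bmp6 without DMSO replicate 2 (adjusted p = 0.0598) or DAPT replicate 1 (adjusted p = 0.0756). Smad5 (0.55) was lost without DAPT replicate 1 (adjusted p just above 0.05). Tgfbr3 (0.53) was lost without any DMSO library or DAPT replicate 1 or DAPT replicate 3, with adjusted p of 0.0701 to 0.133, with the replicate number as a block (adjusted p = 0.0901) and with no count filter (adjusted p = 0.0571); DESeq2 gave an adjusted p of 0.0504. All but the last are edgeR values.

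At 48 h Inhba and Fstl1 were low in permissive cells against both other sorts, and no other gene of the 10 was called. Against control, 2 of 9 genes tested fell and none rose, beside 13.0% of all 13411 genes called (5.72% higher, 7.28% lower); the libraries did not overlap for 4 of the 9, beside 40.6% of all genes. Against nonpermissive, 2 of 9 fell and none rose, beside 13.1% of all genes (6.78% higher, 6.35% lower), and 3 did not overlap, beside 30.1%. In nonpermissive against control 0 of 9 were called by edgeR, where 0.194% of all genes passed (0.0671% higher, 0.127% lower), and 4 did not overlap, beside 20.5%; among all genes 986 had an unadjusted p under 0.05 and DESeq2 called 154. Each pair of these comparisons shares the libraries of 1 sort, so they are not independent of each other. The median log2 fold change of the 9 was -0.99 in permissive against control (0.06 for all genes), -0.04 in nonpermissive against control (0.00 for all genes) and -0.82 in permissive against nonpermissive (-0.00 for all genes).

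Inhba had 3.71, 1.34 and 3.23 CPM in permissive libraries and 31.3, 53.1 and 9.92 CPM in nonpermissive libraries, against 57.2 and 40.8 CPM in control libraries. All 3 permissive libraries lay below every other library, while nonpermissive and control overlapped. The change in permissive against control was -4.12 ± 0.73 (log2, SE), 17.3-fold lower (edgeR adjusted p = 0.00217). Against nonpermissive it was -3.46 ± 0.69, 11.0-fold lower (edgeR adjusted p = 0.00442). The difference between nonpermissive and control was -0.65 ± 0.66 (edgeR adjusted p = 0.934).

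Fstl1 had 219, 582 and 369 CPM in permissive libraries and 2499, 3179 and 2829 CPM in nonpermissive libraries, against 4437 and 3924 CPM in control libraries. The 3 sorts did not overlap, in the order permissive, nonpermissive, control. It fell 10.7-fold in permissive against control (log2 fold change -3.42 ± 0.47 SE; edgeR adjusted p = 0.000372). Against nonpermissive it was 7.28-fold lower (log2 fold change -2.86 ± 0.43 SE; edgeR adjusted p = 0.000795). Nonpermissive against control gave -0.56 ± 0.45 (edgeR adjusted p = 0.889), so that step did not pass. Permissive replicate 1 had the lowest sum of supporting cell markers. Without it, the log2 fold changes against control were -4.46 for Inhba and -3.17 for Fstl1. Against nonpermissive they were -3.78 for Inhba and -2.59 for Fstl1, and all 4 still passed (edgeR adjusted p from 0.000796 to 0.00918). The median supporting cell marker was low in all 3 permissive libraries, so leaving out replicate 1 did not remove that difference.

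Bmp2 had 72.6, 22.4 and 39.6 CPM in permissive libraries and 49.7, 16 and 32 CPM in nonpermissive libraries, against 13.1 and 6.28 CPM in control libraries. Both DAPT sorts lay wholly above control and overlapped each other. In permissive against control the log2 fold change was 2.20 ± 0.70 (SE; edgeR adjusted p = 0.0530), and with the replicate number as a block the adjusted p was 0.0153. In nonpermissive against control it was 1.74 ± 0.69 (edgeR adjusted p = 0.565), and between the DAPT sorts 0.46 ± 0.57 (edgeR adjusted p = 0.70), with -0.10 without permissive replicate 1.

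Fst had 0.62, 1.34 and 4.04 CPM in permissive libraries and 9.49, 7.42 and 25.0 CPM in nonpermissive libraries, against 2.06 and 5.71 CPM in control libraries. The nonpermissive libraries were the highest of the 3 sorts without overlap. Permissive against nonpermissive gave a log2 fold change of -2.85 ± 0.91 (SE), with an edgeR adjusted p of 0.0545. With the replicate number as a block the edgeR adjusted p was 0.0201. Nonpermissive against control gave 1.86 ± 0.99 (edgeR adjusted p = 0.767). Fstl3 had 1.44, 0 and 3.64 CPM in permissive libraries and 1.12, 0 and 0.64 CPM in nonpermissive libraries, against 7.11 and 7.13 CPM in control libraries. Every library of the DAPT sorts lay below control, as at 24 h, but neither difference passed (log2 fold change -2.08 ± 1.26 SE for permissive and -3.39 ± 1.35 SE for nonpermissive; edgeR adjusted p = 0.336 and 0.577).

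Inhbb had 0.62, 0.67 and 2.83 CPM in permissive libraries and 0.56, 16.0 and 4.16 CPM in nonpermissive libraries, against 0 and 1.43 CPM in control libraries. Its spread within the nonpermissive sort was wider than any difference between sorts, and no comparison passed (edgeR adjusted p from 0.318 to 0.773). Bmp4 was not tested, with 6 counts in permissive, 8 in nonpermissive and 20 in control.

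The receptor and inhibitory Smad genes gave no call at 48 h. Tgfbr1 had 161, 110 and 165 CPM in permissive libraries and 224, 220 and 163 CPM in nonpermissive libraries, against 269 and 145 CPM in control libraries. Acvr2b had 5.57, 4.02 and 10.5 CPM in permissive libraries and 5.86, 3.43 and 11.8 CPM in nonpermissive libraries, against 3.37 and 6.56 CPM in control libraries. Smad7 had 19.8, 4.69 and 14.2 CPM in permissive libraries and 41.0, 12 and 15 CPM in nonpermissive libraries, against 49.6 and 9.42 CPM in control libraries. The sorts overlapped for all 3 genes, and the Smad7 libraries of each sort lay far apart. In permissive against control the log2 fold changes were -0.51 ± 0.43 for Tgfbr1, 0.43 ± 0.86 for Acvr2b and -1.19 ± 0.80 for Smad7 (SE; edgeR adjusted p = 0.512, 0.813 and 0.392). Without control replicate 1 the Smad7 value turned to 0.46 and that of Tgfbr1 to 0.0092, and without permissive replicate 3 that of Acvr2b turned to -0.034.

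**Figure D2:**
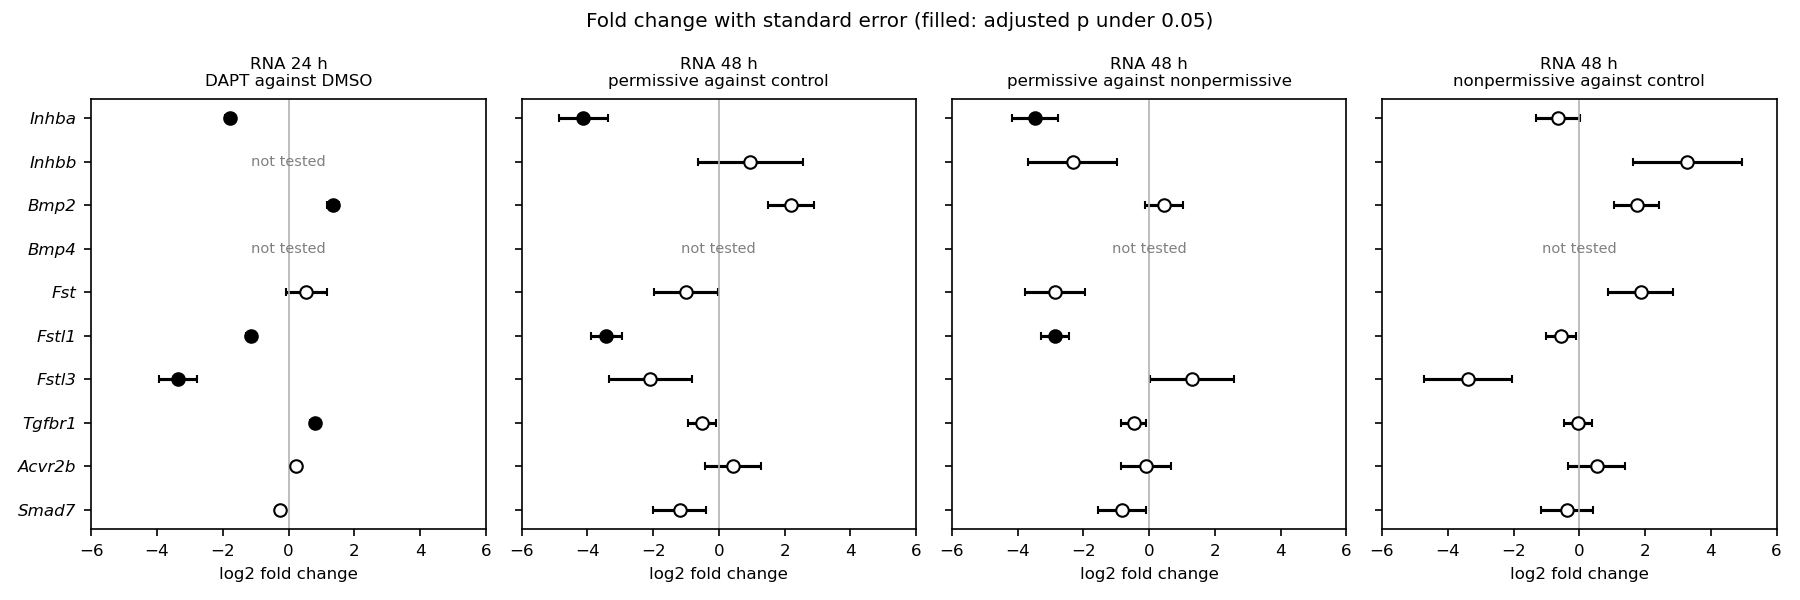
log2 fold change of each gene with its standard error (bars) in the 4 RNA comparisons; filled points have an edgeR adjusted p under 0.05. At 24 h 5 points are filled, in permissive against control and against nonpermissive only Inhba and Fstl1 are, and in nonpermissive against control none is.

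Markers of other cells also moved between the 48 h sorts. The summed level of 12 hair cell markers was 5600 to 7504 CPM in permissive, 273 to 352 CPM in nonpermissive and 151 and 279 CPM in control, with Barhl1 and Chrna10 at 0 in control. That of 14 mesenchyme markers was 232 to 711 CPM in permissive, 1420 to 3427 CPM in nonpermissive and 656 and 2849 CPM in control, none of them at 0 throughout a sort. That of 7 markers of the epithelial ridges beside the sensory epithelium was 129 to 359 CPM in permissive, 869 to 1328 CPM in nonpermissive and 1386 and 1432 CPM in control. Schwann cell and glial markers (8) summed to 99.7 to 274 CPM in permissive, 497 to 731 CPM in nonpermissive and 513 and 896 CPM in control, with Gfra3 at 0 in nonpermissive and control. Stria vascularis and melanocyte markers (6) summed to 11.7 to 33.1 CPM in permissive, 191 to 355 CPM in nonpermissive and 217 and 478 CPM in control, with Dct and Tyr at 0 in permissive and control and Kcne1 at 0 in permissive and nonpermissive. The epithelial ridge, Schwann cell and stria sums thus lay lower in permissive than in both other sorts without overlap, as Inhba and Fstl1 did. Of the medians of the ridge, Schwann cell and stria lists only that of the ridges did so, at 13.2, 22.4 and 34.8 CPM in permissive. It was 128 to 232 CPM in nonpermissive and 63.6 and 202 CPM in control. The Schwann cell medians, 1.86, 4.02 and 8.69 CPM in permissive, overlapped both other sorts. The stria medians, 1.03, 0.17 and 1.01 CPM in permissive, overlapped those of control. Endothelial markers (9) summed to 55.1 to 141 CPM in permissive, 112 to 268 CPM in nonpermissive and 22.1 and 45.9 CPM in control, with Tek at 0 in permissive. Blood and macrophage markers (8) summed to 60.9 to 255 CPM in permissive, 23.4 to 110 CPM in nonpermissive and 29.9 and 62.5 CPM in control, with Aif1 at 0 in permissive, and the sums overlapped. The medians of that list were lower in permissive without overlap, at 0, 0.50 and 0.40 CPM. They were 5.45, 3.43 and 6.72 CPM in nonpermissive and 2.34 and 5.56 CPM in control. Spiral ganglion neuron markers (6) summed to 48.7 to 107 CPM in permissive, 36.6 to 75.4 CPM in nonpermissive and 74.2 and 121 CPM in control, with Nefl at 0 in control. The medians of the spiral ganglion list were higher in permissive without overlap, at 9.29, 11.0 and 9.70 CPM. They were 0.56, 0.57 and 0.32 CPM in nonpermissive and 0.94 and 0 CPM in control. The part of all these markers in the Inhba and Fstl1 differences was not tested.

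Among the 89 further pathway genes, 61 were tested at 48 h. In permissive against control 2 rose and 10 fell, beside 5.72% higher and 7.28% lower of all genes, with a median log2 fold change of -1.03 (0.06 for all genes). In permissive against nonpermissive 1 rose and 9 fell, beside 6.78% higher and 6.35% lower, with a median of -0.67 (-0.00 for all genes). In nonpermissive against control none was called by edgeR, beside 0.194% of all genes, with a median of -0.20 (0.00 for all genes). Tgfb2, a TGF-beta ligand gene, had 193, 171 and 154 CPM in permissive libraries and 1744, 1880 and 1381 CPM in nonpermissive libraries, against 2444 and 1400 CPM in control libraries. The permissive libraries lay far below both other sorts, which overlapped (log2 fold change -3.47 ± 0.43 SE against control and -3.27 ± 0.40 SE against nonpermissive; edgeR adjusted p = 0.000212 and 0.000202). Ccn2, a matrix protein gene induced by TGF-beta, had 4.95, 15.7 and 9.30 CPM in permissive libraries and 314, 614 and 331 CPM in nonpermissive libraries, against 153 and 215 CPM in control libraries. Its log2 fold change was -4.21 ± 0.55 against control and -5.40 ± 0.55 against nonpermissive (SE; edgeR adjusted p = 0.000290 and 8.27e-05).

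Rgma, which encodes a membrane-anchored BMP co-receptor, was at 18.9 ± 8.72 CPM in permissive and 227 ± 79.3 CPM in nonpermissive (SD, n = 3 each), against 140.0 ± 49.5 CPM in control (SD, n = 2), and fell against both. Tgif1, a Smad co-repressor gene, fell by 2.25 against control and by 2.06 against nonpermissive (log2; edgeR adjusted p = 0.00361 and 0.00405). The BMP ligand gene Bmp6, higher with DAPT at 24 h, was at 7.37 ± 4.91 CPM in permissive and 42.0 ± 13.2 CPM in nonpermissive (SD, n = 3 each), against 46.2 ± 10.5 CPM in control (SD, n = 2), and fell against both. Gdf6 gave 1 count over the permissive libraries and 22 over the nonpermissive ones, against 44 over the control ones. Its ratio of summed CPM in permissive to control was 0.0195 (95% counting interval 0.000483 to 0.115), and to nonpermissive 0.0373 (0.000904 to 0.231).

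Fstl4 rose in permissive cells at 48 h as it had in DAPT at 24 h. It had 38.8, 39.2 and 51.4 CPM in permissive libraries and 1.40, 2.85 and 0 CPM in nonpermissive libraries, against 0 counts in both control libraries. It was at least 60.8-fold higher in permissive than in control, taking 3 counts per control library as the floor, and higher than in nonpermissive with a log2 fold change of 5.03 ± 0.89 (SE; edgeR adjusted p = 0.00247). Acvr1c, a type I receptor gene, had 33, 3 and 22 counts in permissive libraries and 0, 0 and 3 counts in nonpermissive libraries, against 0 counts in both control libraries, and was at least 7.86-fold higher in permissive than in control by the same floor. Intervals and floors cover counting error only.

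Several of these calls at 48 h depended on 1 library. Against control, Bmp6 (without control replicate 1, adjusted p = 0.0720), Tgif1 (control 1, 0.0552), Ltbp3 (control 2, 0.117; log2 fold change -2.78 with all libraries), Pmepa1 (-2.11; control 1, 0.0932, and permissive 3, 0.0582), Bmper (-3.53; control 2, 0.505, and each permissive library, 0.0632 to 0.0872) and Smad1 (-2.31; control 2, 0.503, and permissive 1 or 2, 0.0646 and 0.0701) were lost. Without control replicate 2 the log2 fold change was -1.67 for Bmper and -0.96 for Smad1. Acvr1c was lost without either control library (0.196 and 0.184), and Gdf6 without either control library, permissive 1 or permissive 3 (0.0612 to 0.162); without permissive 2, which holds its only permissive count, Gdf6 still passed. Against nonpermissive, Gdf6 (-4.35) was lost without any single library but permissive 2 (0.0766 to 0.148), and with no count filter (0.0606). Ltbp3 (-2.33; nonpermissive 1 or 3, permissive 1 or 2, 0.0512 to 0.0833), Smad1 (-2.15; nonpermissive 2 or 3, permissive 1 or 2, 0.0563 to 0.0806) and Pmepa1 (-2.05; nonpermissive 3, permissive 1 or 3, 0.0506 to 0.0727) were lost as well. Single values in parentheses are edgeR adjusted p. With the replicate number as a block, Gdf6 was lost in both comparisons (adjusted p = 0.0511 and 0.0647) and Acvr1c against control (adjusted p = 0.0699). The block also brought calls. Against control it took Id3 (log2 fold change -1.46) to an adjusted p of 0.0102, against 0.159 without it, and Nbl1 (-2.90) to 0.0152, against 0.0775. Against nonpermissive it took Id3 (-1.11) to 0.0458, against 0.256, and Bmper (-3.02) to 0.0391, against 0.0523. Smad1 against control was also lost with only those 2 groups in the fit (adjusted p = 0.0531).

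**Figure D3:**
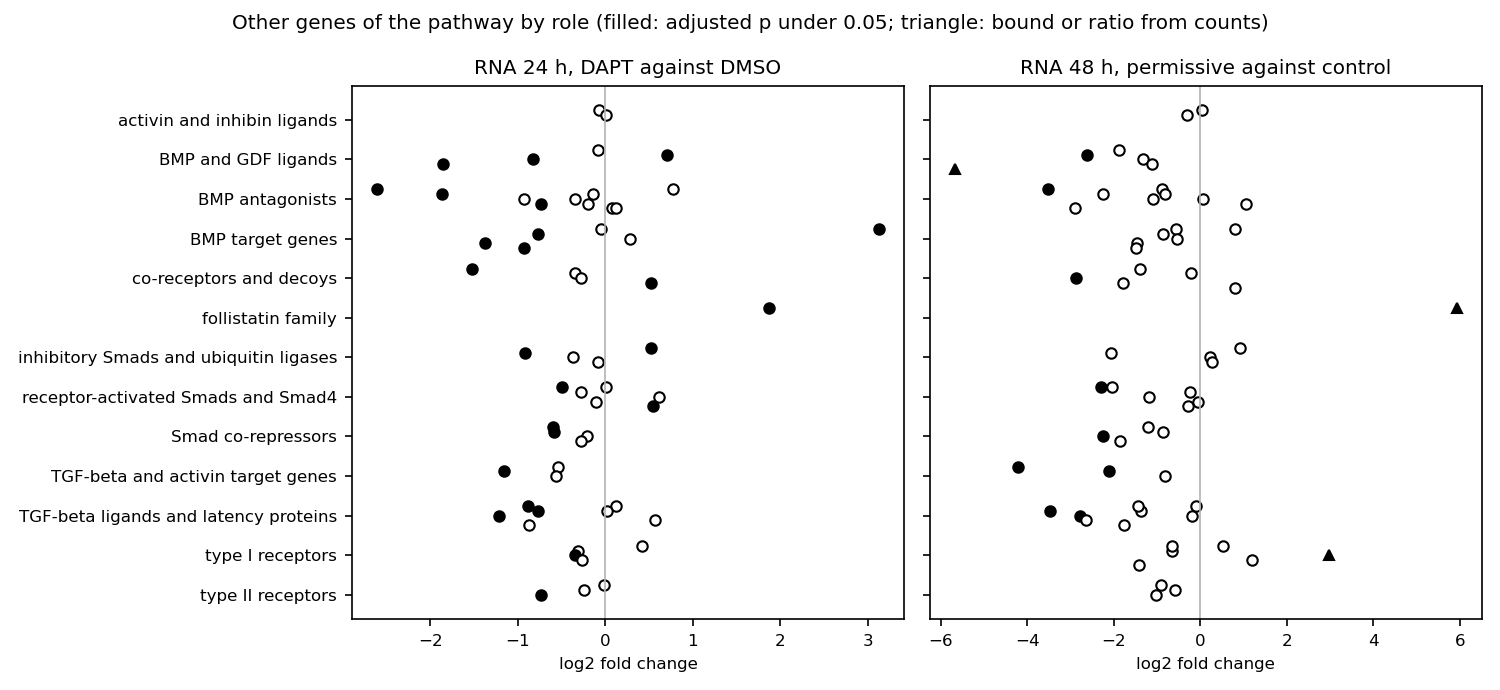
log2 fold changes of the other pathway genes, 1 point per gene in rows by role, for DAPT against DMSO at 24 h (left) and permissive against control at 48 h (right); filled points have an edgeR adjusted p under 0.05, and triangles are a lower bound (Fstl4, Acvr1c) or a ratio of summed CPM (Gdf6). Filled points lie mostly left of 0: 19 of 25 at 24 h and 10 of 12 at 48 h.

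On a scale that allows for transcript length (TPM), Fstl1 was the most abundant of the 10 in every group. Its mean was 1382 TPM in DAPT and 3179 TPM in DMSO at 24 h, and 400.5 TPM in permissive, 2907 TPM in nonpermissive and 4907 TPM in control at 48 h. Tgfbr1 ranked 2 by its mean in every group, from 42.9 TPM in permissive to 374 TPM in DAPT. Its range overlapped that of Inhba in nonpermissive (40.39 to 88.51 against 10.35 to 51.45 TPM) and in control (38.6 to 100.2 against 45.5 to 89.1 TPM). In permissive it overlapped that of Bmp2 (23.5 to 63.7 against 7.92 to 47.4 TPM). Inhba came next to Tgfbr1 in DMSO at 207 TPM (197 to 223 TPM, inside the range of Tgfbr1 there, 197 to 242 TPM), in nonpermissive at 35.6 TPM and in control at 67.3 TPM. In DAPT it ranked 4 at 59.4 TPM, beside Acvr2b at 59.3 TPM, and below Bmp2 at 136 TPM without overlap. In permissive cells Inhba ranked 6 at 3.59 TPM (1.20 to 6.14 TPM), and its range overlapped those of Acvr2b, Smad7, Fstl3, Fst and Bmp4. Fst, Bmp4 and Inhbb ranked between 6 and 10 in every group, and Fst was highest among them in nonpermissive, at 9.91 TPM.

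The genes whose profile over the 14 RNA libraries lay closest to that of each gene were found by the root mean square difference of log2 CPM, after each profile was centred on its mean at each time, among 10962 or 10963 genes. For Inhba the nearest were Sfrp2 (0.35) and Plod2 (0.36), and for Fstl1 they were Fam174b (0.26) and Aldoc (0.26). For Bmp2 they were Nt5dc3 (0.31) and Epha2 (0.36), for Tgfbr1 Lgr5 (0.23) and Ccnl1 (0.23), and for Fst Metrn (0.41) and Lamb1 (0.45). For Fstl3 they were Sorcs1 (0.45) and Psen2 (0.49), for Acvr2b Atf4 (0.19) and Mta2 (0.20), and for Smad7 Tet2 (0.27) and Med12 (0.30). The compared values come from the same libraries, so they share library composition and depth.

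The chromatin data are lists of called peaks, 1 per library, each peak with the fold enrichment its authors' caller gave. Overlapping peaks of the 6 lists of an assay were merged into regions on mm10, with no test since 2 libraries stood against 2. List lengths differed: permissive 87089 and 170984 ATAC peaks, nonpermissive 110227 and 127066, control 129755 and 105431. The H3K27ac lists held 114572 and 72430 peaks in permissive, 93900 and 46284 in nonpermissive and 57839 and 55391 in control. A region absent from a list may have been below its caller's limit, and fold values are not scaled between lists.

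ATAC peaks lay within 1 kb of the start of 8 of the 10 genes in nearly every library, 47 in all. Fst, Bmp2 and Smad7 had no promoter entry. For them a peak within 1 kb of either end of the gene was counted, here and for H3K27ac, so it may lie at the far end. For Inhba the authors' fold was 5.41 and 12.57 in permissive libraries and 8.55 and 11.50 in nonpermissive libraries, against 10.07 and 8.98 in control libraries. The Inhba promoter was thus listed as open in all 6 libraries, including those of permissive cells, in which its RNA was lowest. For Fstl1 the fold was 4 and 4.92 in permissive and 2.60 and 5.21 in nonpermissive, against 6.21 and 3.43 in control. Inhbb lacked a peak in permissive replicate 1 alone. Fstl3 and Bmp4 had none within 1 kb in any library, though inside each gene a region was listed in all 6 (chr10:79779950-79781025 for Fstl3, chr14:46386968-46387823 for Bmp4).

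H3K27ac was listed at fewer of these promoters, 25 times in all. At Inhba a region of 2524 bases, chr13:16010967-16013490, which holds the promoter printed above, had no peak in either permissive library. Its fold was 9.16 and 5.87 in nonpermissive libraries and 4.95 and 5.14 in control libraries. The mark was therefore listed at Inhba in the 4 libraries of the sorts with more Inhba RNA and in neither permissive one. At a minimum −log10 q of 5 the region was left in 1 nonpermissive list and in no control list. Fstl1 had no H3K27ac promoter peak in permissive replicate 1 and a fold of 3.19 in permissive replicate 2, with 8.87 and 5.87 in nonpermissive and 3.8 and 5.14 in control. Bmp2 had one in permissive replicate 1 alone, at 5.62. Acvr2b had 5.29 and 3.19 in permissive and 4.57 in nonpermissive replicate 2, with none in control, while Tgfbr1 (3.60 to 5.62) and Smad7 (3.19 to 14.19) had one in all 6 libraries. Inhbb, Fst, Fstl3 and Bmp4 had none.

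**Figure D4:**
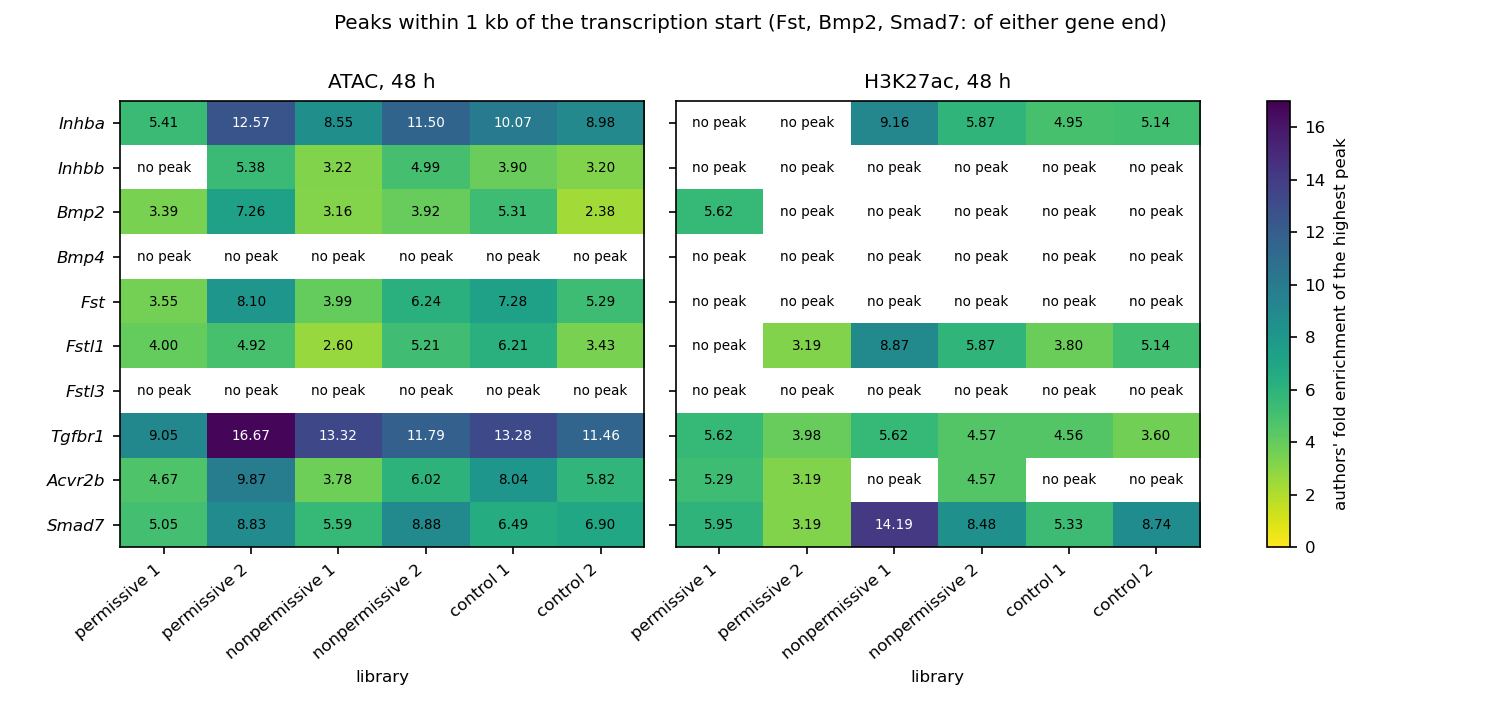
The authors' fold enrichment of the highest peak within 1 kb of the start of each gene (for Fst, Bmp2 and Smad7 of either end of the gene) in each 48 h library, for ATAC (left) and H3K27ac (right); white cells have no peak. At Inhba ATAC is listed in all 6 libraries and H3K27ac in the 4 nonpermissive and control libraries.

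Within 100 kb of the 10 genes there were 556 ATAC and 298 H3K27ac regions. Of the H3K27ac regions, 18 (6.04%) were in both permissive lists and neither control list, beside 3.93% of all regions, and 8 (2.68%) were in both control lists and neither permissive list, beside 1.74%. In both nonpermissive lists and neither permissive list were 12 (4.03%, beside 2.36%), and in both permissive and neither nonpermissive 9 (3.02%, beside 2.90%). Nonpermissive against control gave 8 (2.68%, beside 1.75%) and, the other way, 1 (0.336%, beside 0.402%). Of the ATAC regions, 21 (3.78%) were in both permissive and neither control list, beside 3.20% of all, and 15 (2.70%) in both control and neither permissive list, beside 2.44%. Against nonpermissive these counts were 17 (3.06%, beside 3.16%) in both permissive lists alone and 17 (3.06%, beside 2.13%) in both nonpermissive lists alone. Nonpermissive against control gave 8 (1.44%, beside 1.14%) and, the other way, 13 (2.34%, beside 1.36%). These shares were not tested, and the single loci below are given as descriptions.

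Of the 8 H3K27ac regions in both control lists and neither permissive list, 7 were at Fstl1 and 1 was the Inhba promoter. The Fstl1 window held 65 of the 298 H3K27ac regions and the Inhba window 20. The 7 were 10.8% of the Fstl1 window, beside 1.74% of all regions. At Fstl1, 4 of the 7 were also in both nonpermissive lists. The farthest, chr16:37727719-37731325, lies 45730 bases from the gene span and had a fold of 11.53 and 4.57 in nonpermissive and 5.33 and 6.69 in control. Nearer are chr16:37761552-37762951, at 14104 bases (7.09 and 3.26 in nonpermissive, 3.8 and 3.6 in control), and chr16:37771908-37773761, at 3294 bases (10.35 and 5.22 in nonpermissive, 4.56 and 5.66 in control). The last, chr16:37786020-37789632, lies inside the gene (6.5 and 3.92 in nonpermissive, 5.71 and 4.63 in control). Together they form a run of marked regions before and inside Fstl1 that the permissive lists lack. At a minimum −log10 q of 5, of the 8 regions only chr16:37727719-37731325 was still in both control lists and neither permissive list. Inside the farthest and inside the one at 3294 bases lay an ATAC region called in both control lists and no other (chr16:37728546-37728891 and chr16:37772668-37773328). Their control folds were low, at 2.38 and 2.02 for the first and 3.15 and 2.41 for the second. Neither kept this pattern at a minimum −log10 q of 5 or with lists cut to equal lengths.

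The Fstl1 window also held regions listed in permissive cells, so the locus did not go 1 way. In both permissive lists and neither control list were 4 of 65 H3K27ac regions (6.15%, beside 3.93% of all). The same held for 7 of 76 ATAC regions (9.21%, beside 3.20% of all). Inside the gene, H3K27ac at chr16:37812330-37813194 had a fold of 4.63 and 3.19 in permissive and 3.55 and 6.53 in nonpermissive, with no peak in control. ATAC inside the gene had 2.37 and 4.02 in permissive at chr16:37780938-37781220, and 2.71 and 7.93 in permissive at chr16:37828252-37828793, with none in the other sorts. ATAC at chr16:37860235-37860644, 23719 bases beyond the span, had 3.72 and 19.60 in permissive and none elsewhere. That region kept its pattern at a minimum −log10 q of 5 and with lists cut to equal lengths. The regions given inside the gene stayed in both permissive and neither control list under only 1 of these 2 settings. Not all regions of the window are described.

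At Bmp2 regions were listed in permissive and not in control, beside Bmp2 RNA that was higher in every permissive than in every control library. Bmp2 RNA was also above control in every nonpermissive library, while the regions below were in 1 nonpermissive list or none. H3K27ac at chr2:133506730-133510736, 41423 bases from the gene span, had a fold of 16.21 and 7.97 in permissive and 3.25 in nonpermissive replicate 1, with no peak in nonpermissive replicate 2 or in control. ATAC within it, at chr2:133508856-133509959, had 3.77 and 8.21 in permissive and 2.88 in nonpermissive replicate 2, with none in control. A region inside the gene, chr2:133552845-133555951, had H3K27ac at 5.62 and 3.19 in permissive and none elsewhere. No region within 100 kb of Bmp2 was in both control lists and neither permissive list, in either assay. Which gene a distant region acts on was not measured.

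**Figure D5:**
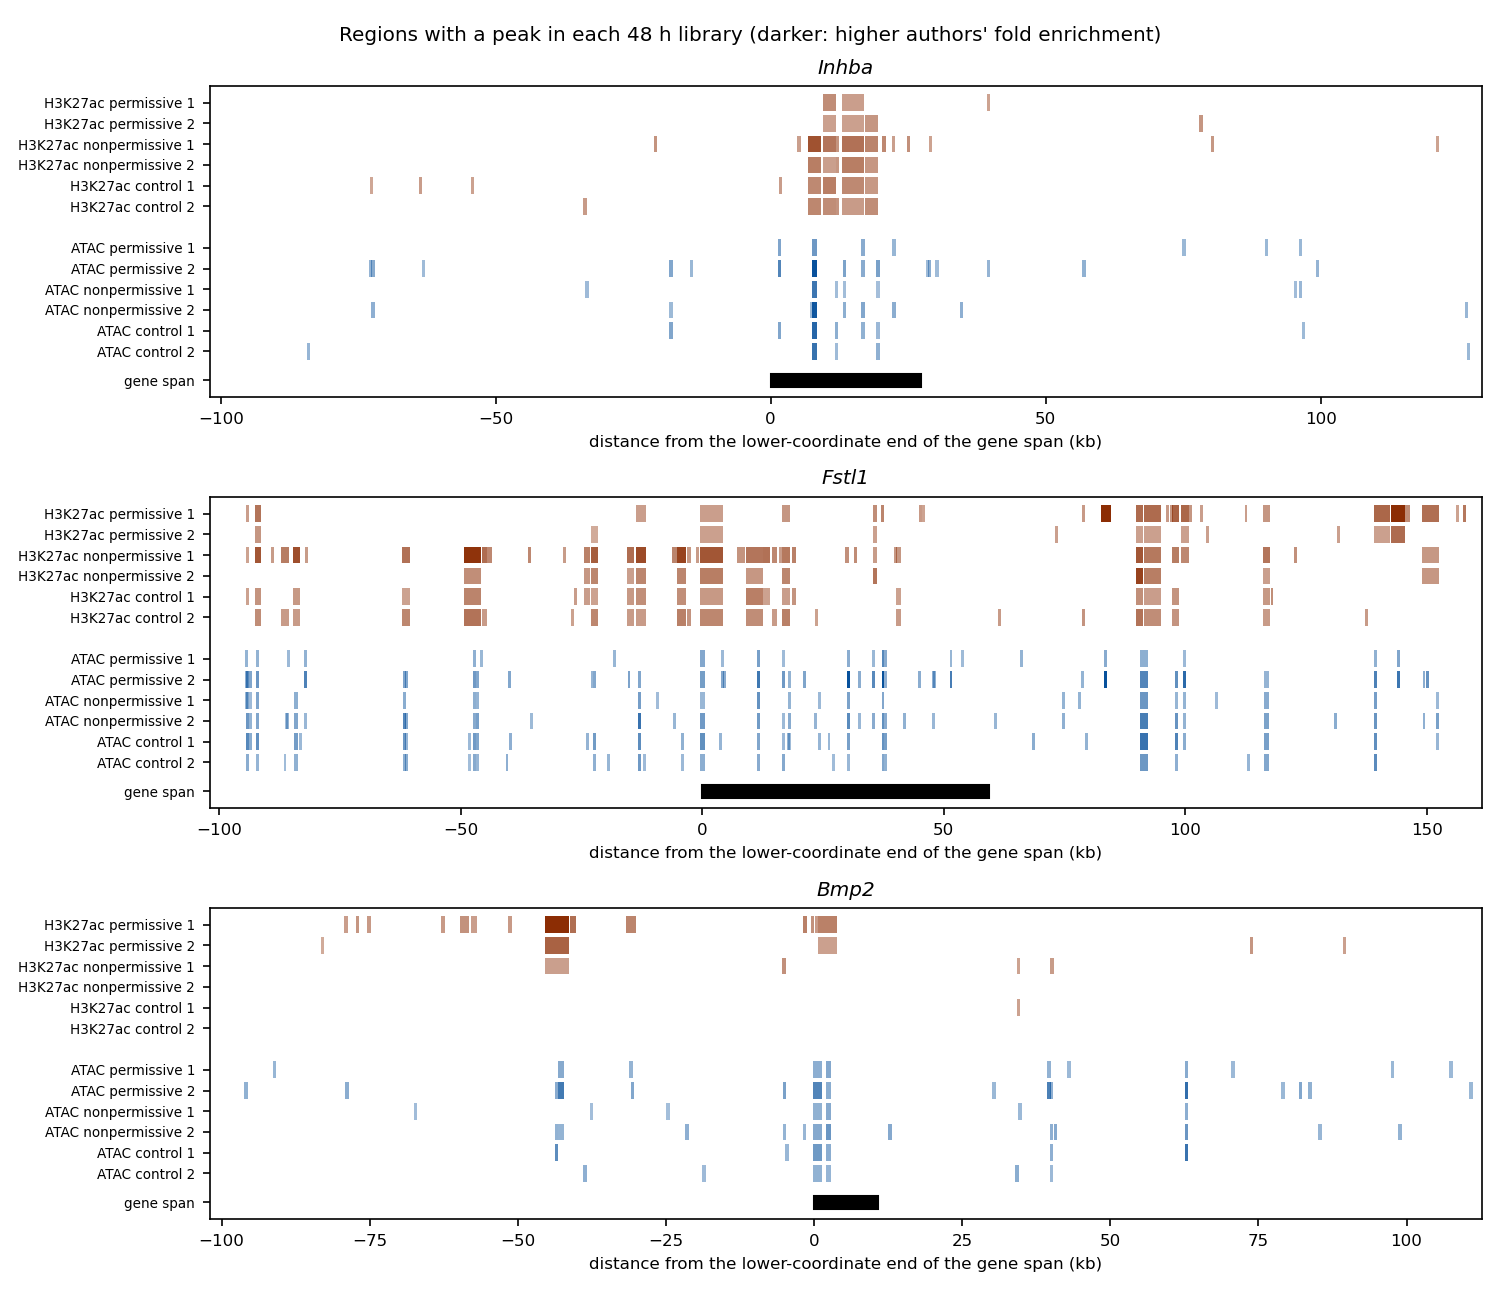
Regions with a peak in each 48 h library around Inhba, Fstl1 and Bmp2, by distance in kb from the lower-coordinate end of the gene span; rows are libraries, red is H3K27ac, blue is ATAC and darker means a higher authors' fold. H3K27ac is missing from the permissive rows at the Inhba promoter and at several places before Fstl1, and about 40 kb before Bmp2 it is darkest in the permissive rows.

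Regions also separated the sorts near other genes. At Smad7, 13 of 81 ATAC and 5 of 47 H3K27ac regions were in both lists of 1 sort and neither of another. These numbers were 11 of 65 and 8 of 32 at Fstl3 and 13 of 76 and 13 of 65 at Fstl1. At Inhba they were 3 of 29 and 2 of 20, and at Bmp2 2 of 36 and 2 of 20. The same share over all regions was not taken, so these counts are descriptions. Tgfbr1 had 3 of 51 H3K27ac regions in both permissive and neither control list (5.88%, beside 3.93% of all H3K27ac regions). Of these, chr4:47367850-47368717, inside the gene, had 5.62 and 3.98 in permissive and no peak elsewhere. It kept this pattern under only 1 of 2 settings, a minimum −log10 q of 5 and lists cut to equal lengths. Smad7 had 4 of 47 H3K27ac regions in both permissive and neither control list (8.51%). Its ATAC regions numbered 5 of 81 each way between permissive and control (6.17%, beside 3.20% and 2.44% of all). At Fstl3, 4 of 32 H3K27ac regions were in both permissive and neither control list (12.5%). The strongest (chr10:79844034-79849022, fold 23.15 and 6.38 in permissive, 3.25 in nonpermissive replicate 1) lay 61404 bases away, among other genes. Fst had no H3K27ac region that separated 2 sorts in this way, nor had Bmp4 or Acvr2b, and Inhbb had 1. Their windows held 15, 6, 31 and 11 H3K27ac regions in that order.

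Parts of some of the 10 genes overlap other annotated genes: B230303A05Rik at Inhba, Gm41074 at Fst, Gm41452 at Fstl1, Prss57 at Fstl3, Gm15217 and Gm15222 at Bmp4, Gm32435 at Tgfbr1 and Gm41776 at Smad7. Whether reads were counted by strand is not given in the sources used here, so reads on shared bases cannot be assigned with certainty.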

How the data were processed

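RNA, ATAC and H3K27ac CUT&RUN data of 26 libraries were used (14, 6 and 6). Per the submitters' processing notes STAR, RSEM, DESeq2, Bowtie2, MACS2 and UMI-tools were used on mm10; their roles and versions were not given. The authors deposited expected counts and TPM per gene (RSEM tables). TPM was used, as deposited, for levels between genes. The peak lists as deposited hold, per peak, a fold enrichment (a ratio to background) and a −log10 p-value and −log10 q-value. Of 48709 identifiers 48349 (99.3%) matched a symbol in RefSeq or the name table; at most 0.068% of counts had none.

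Expected counts were rounded, filtered with filterByExpr, TMM-scaled and tested two-sided with edgeR 4.0.16 (R 4.3.3), 24 h alone and all 8 libraries of 48 h in 1 fit. SE is the log2 fold change over the root of F. DESeq2 1.42.0 was an alternative. The code was tested on simulated data. For the 48 h design it narrowly missed the pass mark first set, on the share of large known changes called. After that was seen, the mark was replaced by one on unbiased estimates and few false calls. Changes at 48 h, large ones included, can therefore go uncalled.

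Deviations of same-numbered permissive and nonpermissive RNA libraries from their group means gave r = 0.58, 0.16 and 0.13. Nonpermissive 2 with permissive 3 gave 0.134, and nonpermissive 3 with permissive 2 gave 0.186. Pairs of a replicate 1 with another number gave -0.358 to -0.265. Only replicate 1 thus stood apart, and these values do not settle a pairing by number of replicates 2 and 3. No label names a shared animal or batch, so the replicate number was a block in an alternative fit only. Printed values come from the fit without the block, and the blocked value stands beside each result whose call it changes.

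Peaks overlapping by 1 base were merged, and gene spans and promoters come from RefSeq GRCm38.p6. Named genes are the 10, and of each pathway list up to 3 with the smallest adjusted p under 0.05; Hes5, Atoh1 and Lfng check the labels. Members, lists and tests were chosen with earlier results of these data known. Regions described are those in both lists of a sort and neither of another, or listed in all 6; which of them are given was decided after their values were seen. Depth behind the peak lists is unknown.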

Additional observations from a re-analysis of the deposited data

Results flagged for a closer look

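For 12 of 70 pathway genes tested, the change from control differed between permissive and nonpermissive cells. This was the direct test of permissive against nonpermissive in edgeR (adjusted p under 0.05 over all genes). Of the pathway genes 1 was higher and 11 were lower in permissive. Of all genes 13.1% were called, 6.78% higher and 6.35% lower, and the 2 shares were not compared by a test. Of the 10 genes described above, Fstl1 differed by -2.86 (log2) and Inhba by -3.46, with all 3 permissive libraries below all 3 nonpermissive ones. Among the further pathway genes, the TGF-beta ligand gene Tgfb2 differed by -3.27, the TGF-beta target Ccn2 by -5.40 and the latency gene Ltbp3 by -2.33. Pmepa1 differed by -2.05, the co-repressor gene Tgif1 by -2.06 and Smad1 by -2.15. On the BMP side, Rgma differed by -3.57, Bmp6 by -2.47 and Gdf6 by -4.35, a fitted value that rests on 1 count in permissive and 22 in nonpermissive. Fstl4 alone was higher in permissive, by 5.03. Ltbp3, Pmepa1, Smad1 and Gdf6 lost the call without single libraries, as given above. No group held the 4 libraries that a check for outlying libraries needs.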

How the results depend on the processing

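Inhba and Fstl1 at 24 h and in permissive cells against control and against nonpermissive, and Fstl3, Bmp2 and Tgfbr1 at 24 h, kept their direction and stayed under an adjusted p of 0.05 in every alternative run (DESeq2, RLE scaling, no count filter, a replicate block, only the 2 groups compared at 48 h, and leaving out each library); the highest adjusted p was 0.027, for Tgfbr1. RLE in place of TMM moved the median of all genes by at most 0.012 (log2). Without single libraries, genes called at 24 h ranged from 2573 (without DAPT replicate 1) to 4948 around 3900, in permissive against control from 1066 (without control replicate 1) to 1738 around 1743 (1086 without control replicate 2), and in permissive against nonpermissive from 1215 to 1796 around 1761. DESeq2 called 2360 in permissive against control and 2342 in permissive against nonpermissive, and no filter 2353 and 2317. In nonpermissive against control, 26 became 154 with DESeq2, 302 without the filter, 49 with only those groups and 2 to 40 without single libraries. Bmp2 in permissive against control (adjusted p 0.0107 to 0.331) passed in 5 alternatives and Fst in permissive against nonpermissive (0.0151 to 0.254) in 6; the cause was not tested.

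At 24 h the same numbers did not pair the libraries (r = -0.02, -0.07 and -0.06), and the replicate block gave 3328 calls. At 48 h the block gave 2058 calls in permissive against control, 36 in nonpermissive against control and 2152 in permissive against nonpermissive; besides the calls named in the text it changed none of the 10 genes. Signs turned only for genes that were not called. With the block, Acvr2b was at -0.082 in permissive against control and -0.042 in nonpermissive against control, and Tgfbr1 at 0.043 in nonpermissive against control. Leaving out single libraries gave, at 24 h, -0.20 to 1.20 for Fst (negative without DAPT replicate 1). In permissive against control it gave -0.11 to 5.20 for Inhbb (negative without control replicate 1 or permissive replicate 3), -0.97 to 0.0092 for Tgfbr1 and -2.02 to 0.46 for Smad7 (both positive without control replicate 1), and -0.034 to 0.90 for Acvr2b (negative without permissive replicate 3). In nonpermissive against control it gave -0.48 to 0.47 for Tgfbr1 (positive without control replicate 1 or nonpermissive replicate 3), -1.17 to 1.27 for Smad7 (positive without control replicate 1) and -0.066 to 1.01 for Acvr2b (negative without nonpermissive replicate 3). In permissive against nonpermissive it gave -0.56 to 0.49 for Acvr2b (positive without nonpermissive replicate 3, permissive replicate 1 or permissive replicate 2) and -0.10 to 0.89 for Bmp2 (negative without permissive replicate 1).

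Counts of regions depended more on settings. In the order permissive and not control, control and not permissive, nonpermissive and not control, control and not nonpermissive, permissive and not nonpermissive, nonpermissive and not permissive, a minimum −log10 q of 5 left 8, 4, 0, 2, 6 and 3 ATAC and 3, 1, 1, 0, 3 and 0 H3K27ac regions. Lists cut to equal lengths gave 5 ATAC regions in control and not nonpermissive, and 17 H3K27ac regions in control and not permissive, 4 in nonpermissive and not control and 2 in control and not nonpermissive. Windows of 50 kb gave 8 ATAC regions in control and not permissive, 8 in control and not nonpermissive and 10 in nonpermissive and not permissive, and 9 H3K27ac regions in permissive and not control and 3 in permissive and not nonpermissive. Requiring peaks to cover at least 0.5 of a region gave 4 H3K27ac regions in permissive and not control, 2 in control and not permissive and 4 in permissive and not nonpermissive. With 1 list left out the rule needs fewer lists, and counts in the same order ranged over 21 to 135, 15 to 79, 8 to 84, 13 to 82, 17 to 131 and 17 to 83 for ATAC and 18 to 103, 8 to 35, 8 to 74, 1 to 18, 9 to 77 and 11 to 67 for H3K27ac. H3K27ac promoter peaks fell to 11 of 25 at a −log10 q of 5. The cause of these shifts was not tested.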
